A study of Danio rerio with 4 samples.

Results

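The growth hormone and insulin-like growth factor (IGF) axis was examined in whole zebrafish larvae through 10 genes, *gh1*, *ghra*, *igf1*, *igf2a*, *igf2b*, *igfbp1a*, *igfbp1b*, *igfbp2a*, *igfbp3* and *igfbp5b*. The genes were looked up by symbol in the table of 19143 genes that the authors named unfiltered, where all 10 had exactly 1 row. RNA had been sequenced from 4 pools of larvae at 4 dpf, with no treatment group among them. The 2 mutant pools were homozygous for the *st73* allele of *nlrc3l*, a NOD-like receptor gene, and the 2 sibling pools mixed heterozygotes with wild-types. Each genotype had 1 pool of 10 larvae and 1 of 12, all from crosses between *nlrc3l* heterozygotes. In the paper's methods, live larvae were stained with neutral red, a dye taken up by microglia. The staining water also held PTU, which the paper used against pigmentation. Every larva had been sorted with this dye, so that mutants lacked microglia and siblings had them. Neither group therefore separates the lesion in *nlrc3l* from the loss of microglia, and a pool shows no difference between single larvae.

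The measurement available for each gene was the authors' mean, the read count divided by the size factor of its library and averaged over mutant and sibling libraries together. It carries no spread between pools. No values of single libraries were analysed here. Mutants and siblings are thus not compared, and whether any gene of the axis differed between the genotypes is not answered here. The authors' means summed to 8721330 over all genes. The median gene had 126 and the lowest 9.18. No gene with a mean below 9.18 had a row, although the authors named the table unfiltered. Throughout, all genes means the 19143 with a row, so no percentile is a place among every zebrafish gene. The means are not divided by transcript length, so they show how deeply a gene was read and do not rank genes by transcript abundance. Each value is placed by its percentile, the percentage of the 19143 genes with a lower mean. For the mutated gene *nlrc3l* (ENSDARG00000099936) the mean was 42.8, at percentile 23.7. Since that mean pools both genotypes, it gives no check of the genotype labels. In the paper's methods, genotypes were checked by a PCR and restriction enzyme assay before libraries were made.

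Growth hormone is secreted by the somatotrophs of the pituitary and acts through a cytokine receptor that signals by the kinase Jak2 and the transcription factor Stat5. In the liver and in many other tissues it raises the production of Igf1, which acts with Igf2 on the IGF receptor to promote growth and survival of cells. Most circulating IGF is held by binding proteins (Igfbps), which either store it or keep it from the receptor, and proteases release it again by cutting them. Teleost fish kept duplicate copies of many of these genes after a duplication of their genome, named with the endings a and b.

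The hormone gene *gh1* and the receptor copy *ghra* were read less deeply than the median gene, and the receptor copy *ghrb* more deeply. Growth hormone itself, *gh1* (ENSDARG00000038185), had a mean of 88.1 normalised read counts, at percentile 40.4, or 18.2 among only the genes with a mean of 50 or more. The growth hormone receptor copy *ghra* (ENSDARG00000054771) had a mean of 14.8, at percentile 5.82. This value was 1.61 times the lowest in the table, so *ghra* was among the most sparsely read genes that the table holds. The other copy of the receptor gene, *ghrb*, had a mean of 194, at percentile 62.3.

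The IGF ligands spanned a wide range of read depth. For *igf1* (ENSDARG00000094132), the main growth hormone target of the axis, the mean was 11.5, at percentile 2.62 and 1.26 times the lowest value in the table. It was the lowest of the 10 genes. The means of the duplicated *igf2* genes, which encode the ligand known in mammals as a fetal growth factor, both lay above the median of all genes. For *igf2a* (ENSDARG00000018643) the mean was 182, at percentile 60.6, and for *igf2b* (ENSDARG00000033307) it was 475, at percentile 83.4. Among only the genes with a mean of 50 or more, *igf2a* stood at percentile 45.9, below the median of that background. Together, *igf1* and *ghra* were the only members under 20 normalised read counts, a range that held 1924 genes of the table, or 10.1%. At this depth, counting error alone is a larger part of a value than it is for the other 8 members.

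The binding proteins made up 77.8% of the normalised read counts of the 10 genes. Of these 5 genes, 4 lay above the median of all genes, around which all genes split evenly by definition. Only 1 of the 4 listed binding proteins with a row outside the 10 genes lay above it. The highest of the 10 genes was *igfbp1a* (ENSDARG00000099351), with a mean of 1417 at percentile 95.4. Igfbp1 is an inhibitor of IGF action that rises under hypoxia and fasting, in fish as in mammals. This gene alone held 40.8% of the counts of the 10 genes. The copy *igfbp1b* (ENSDARG00000038666) had a mean of 66.3, at percentile 33.6, and was the binding protein member below the median of all genes. Among genes with a mean of 50 or more its percentile was 8.98. For *igfbp3* (ENSDARG00000099144), which in mammals encodes the main carrier of IGF in blood, the mean was 212, at percentile 64.5. The mean of *igfbp2a* (ENSDARG00000052470), which encodes another soluble IGF carrier, was 493, at percentile 84.1. That of *igfbp5b* (ENSDARG00000025348), a copy of the gene for Igfbp5, which binds extracellular matrix in mammals, was 510, at percentile 84.7. All 10 genes together held 0.0398% of the normalised read counts summed over the 19143 genes of the table.

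**Figure D1:**
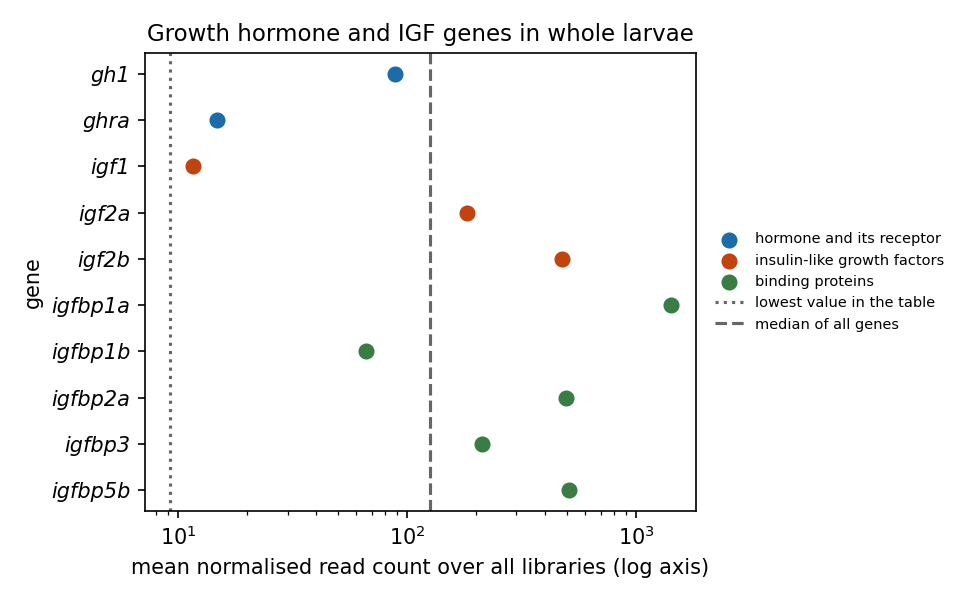
Mean normalised read count over the 4 libraries, mutants and siblings together, for each of the 10 genes (horizontal log axis), with 1 point per gene coloured by role and lines at the lowest value of the table, 9.18, and at the median of all genes, 126. The points of *ghra* and *igf1* lie beside the lowest value, 6 genes lie above the median, and *igfbp1a* lies farthest to the right at 1417, all without error bars since the means were deposited without a spread.

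The median of the 10 genes was 197, against 126 over all genes. Of the 10, 6 lay above the latter, around which all genes split evenly by definition. Of 63 further genes of the axis, 46 had a row under the listed symbol, with a median of 114, and 21 of them, or 45.7%, lay above the median of all genes. A listed gene without a row was not analysed here, and nothing is read from its absence.

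Of 15 genes of the pituitary and its control, a list that includes *gh1* and the hormone gene *prl*, 6 had a row, and all 6 lay below the median of all genes. They ran from *ghrhrb*, which encodes a receptor for growth hormone-releasing hormone, at 12.7 normalised read counts, to *gh1* itself at 88.1. The somatostatin genes *sst1.1* and *sst1.2*, whose products inhibit growth hormone release, had means of 85.9 and 79.6. Somatostatin is also made in the pancreas and brain, so in a whole larva these counts are not those of hypothalamic neurons alone. For *prl*, the gene of the related hormone prolactin, the mean was 30.1. In the list of insulin family ligands, the 3 genes with a row were *igf1*, *igf2a* and *igf2b*. Insulin itself stands in the table as *ins*, outside the listed symbols and named after its value was seen, with a mean of 146.

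All 7 listed receptors had a row, with a median of 125 normalised read counts and 3 of them above the median of all genes. The IGF receptor copies *igf1ra* and *igf1rb* had means of 124 and 125, both at a percentile within 1 point of the median of all genes. The highest was the insulin receptor copy *insra*, at 358.5, and the lowest was *ghra*. For *igf2r*, which in mammals encodes the receptor that takes up and degrades Igf2, the mean was 87.1.

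Of 25 listed signalling genes 24 had a row, with a list median of 254. Of these, 15, or 62.5%, lay above the median of all genes, around which all genes split evenly by definition. The 24 genes ran from the adaptor gene *grb10b* at 20.1 to *pik3r1*, which encodes a regulatory subunit of PI3 kinase, at 1335. Among the genes that act directly below the growth hormone receptor, the kinase genes *jak2a* and *jak2b* had means of 221 and 321. The transcription factor genes *stat5a* and *stat5b* had means of 24.3 and 84.0. The mean of *socs2*, which encodes a feedback inhibitor of growth hormone signalling, was 49.95. The other listed *socs* genes, *socs1a*, *socs3a* and *socs3b*, had means of 45.3, 914 and 1328. Below the IGF receptor, the substrate genes *irs1*, *irs2a* and *irs2b* had means of 137, 342 and 493. Many of these genes also serve insulin and cytokine receptors, so their counts are not particular to the growth hormone and IGF axis.

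Of 6 listed binding proteins outside the 10 genes 4 had a row, and only *igfbp7*, whose product binds IGF weakly, lay above the median of all genes, at 361. The lowest was *igfbp6b*, at 18.6. The duplicates of *igfbp2a* and *igfbp5b* also lay below that median, with a mean of 35.6 for *igfbp2b* and 39.5 for *igfbp5a*. In zebrafish *igfbp5a* is known from ionocytes of the skin, where the protease Pappaa cuts its product and a stanniocalcin holds Pappaa back. The protease gene *pappaa* had a mean of 10.3, the lowest of the 7 proteases and inhibitors that had a row. The stanniocalcin genes *stc1l*, *stc2a* and *stc2b* had means of 52.1, 182 and 26.3. At the other end of that list, *htra1b*, which encodes a secreted serine protease, had a mean of 188.

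**Figure D2:**
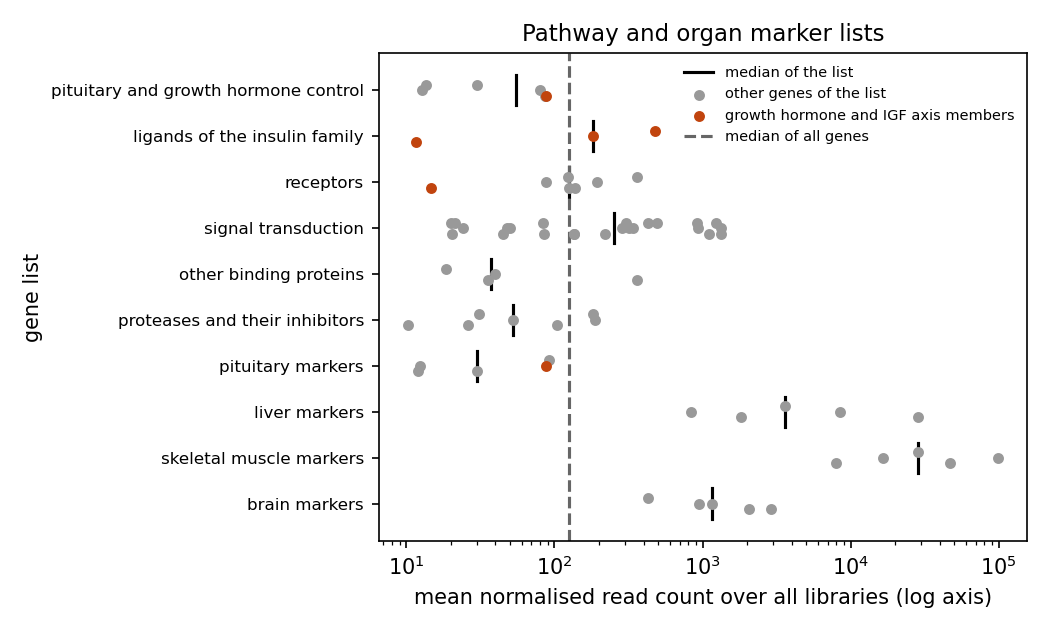
Mean normalised read count over the 4 libraries (horizontal log axis) for the genes of 6 lists of the axis and 4 lists of organ markers, with 1 point per gene, members of the 10 genes in orange, a black bar at each list's median and a dashed line at the median of all genes, 126. Pituitary genes lie at or below 91.6, while every liver, skeletal muscle and brain marker lies at 428 or above.

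Gene order set some of the binding protein genes side by side. In the RefSeq annotation of the assembly GRCz12tu, used here for gene order only, all 10 genes were placed. Only pairs of a member with another gene of the axis were searched, and 3 such pairs had no protein-coding gene between them. These were *igfbp1a* with *igfbp3*, *igfbp2a* with *igfbp5a*, and *igfbp5b* with *igfbp2b*. In the first pair both genes lay above the median of all genes, with means of 1417 and 212. In each of the others, a member at 493 or 510 stood next to a gene at 39.5 or 35.6. The table of gene identifiers used here gives the names IGFBP1, IGFBP2 and IGFBP5, with no ending, for the identifiers of *igfbp1a*, *igfbp2a* and *igfbp5b*, and the same name as the deposited table for the other 7, apart from capitals. How reads that match both copies of a duplicated gene were assigned is not given in the sources used here, so the counts of such copies are uncertain to that extent.

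Markers of the organs that make these genes' products were present at very different depths. Of 6 pituitary markers 5 had a row, 1 of which is *gh1* itself and another *prl*, already given above. They ran from *cga*, the shared subunit of the glycoprotein hormones, at 11.9 normalised read counts to *pomca*, the precursor of corticotropin, at 91.6. The thyrotropin gene *tshba* had a mean of 12.3. All 5 liver markers had a row, from *fabp10a*, a fatty acid binding protein, at 833 to the apolipoprotein gene *apoa2* at 28669. All 5 skeletal muscle markers lay between 7905 for *acta1b* and 98792 for *actc1b*, both actin genes. All 5 brain markers lay between 428 for the myelin gene *mbpa* and 2903 for the synaptic gene *snap25a*. In RNA of whole larvae, few cells of a type, little RNA per cell and a short transcript cannot be told apart behind a low count. This holds for the low counts of pituitary genes as for the low count of *igf1*.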

How the data were processed

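Paired-end libraries from poly(A) RNA were made with a stranded kit. The authors trimmed the reads with Trimmomatic and aligned them with HISAT2, and the submitters' processing notes name GRCz10, featureCounts, Subread 1.5.2, DESeq2 and R 3.3.1. The authors' deposited signal, baseMean, is the mean over all 4 libraries of read counts divided by DESeq2 size factors. The other measurement columns of the unfiltered table, and a second table of selected genes, hold the authors' own comparison of the genotypes (fold changes, errors, statistics and p-values). They were not used, and no test was made. No values of single libraries were analysed here. The design's test of counts was therefore not run, and the depth and precision of single libraries are unknown.

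Genes were found by symbol. Percentiles count the genes with a lower mean, with ties split evenly between lower and higher, and were tested on simulated data with known ranks. For each list the lowest, median and highest mean are given. All members are named, with the highest and lowest gene of each list and genes whose role bears on the axis. The latter were picked after values were seen, while members and lists were chosen with earlier results of these data known. Alternatives were another background and a geometric mean. Sequences and transcript lengths were not used here. Computation was in Python 3.11.15 with pandas 2.3.3, numpy 2.4.6 and scipy 1.17.1, and plots were drawn with matplotlib 3.10.9.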

Additional observations from a re-analysis of the deposited data

How the results depend on the processing

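All 19143 genes of the table carry a symbol, so a background of named genes left each percentile as it was. Among the 13955 genes with a mean of 50 or more, percentiles were lower by construction, at 18.2 for *gh1*, 45.9 for *igf2a*, 77.2 for *igf2b*, 93.7 for *igfbp1a*, 8.98 for *igfbp1b*, 78.2 for *igfbp2a*, 51.3 for *igfbp3* and 79.0 for *igfbp5b*, while *ghra* and *igf1* fall outside that background. A geometric mean in place of the median stayed within 1.5 times for 6 of 7 lists, the 10 genes among them, and gave 99.9 in place of 182 for the 3 insulin family ligands. Division by coding or transcript length, the alignment of proteins, and the alternatives for counts per library (another tool, another filter, leaving out a pool) were not run, since lengths, protein sequences and values per library were not used here. The plan compared levels between genes only per length, so shares and contrasts between genes given here are of read depth alone. The measurement analysed was a mean over all libraries, so no paired analysis could be made.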
